A study of Mus musculus with 6 samples.

Results

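Uhrf1, Dnmt1 and Dnmt3a, the genes of 3 proteins that write and keep DNA methylation, were followed through every table row that holds their reads. A row was given to a gene where its listed intervals cover at least 50 bp of exon of that gene and of no other, small RNA genes ignored. This gave 8 rows of the 53599 in the tables: 3 for Uhrf1, 4 for Dnmt1 and 1 for Dnmt3a. Over all genes, 13417 rows could be given to a single gene in this way. The rows carry the names of other genes because the counting used intervals of the GRCm39 build on reads aligned to GRCm38. Uhrf1 reads stand in the rows called Fsd1, Stap2 and Mpnd, Dnmt1 reads in Gm47079, Icam4, Icam1 and Mrpl4, and Dnmt3a reads in Dnmt3aos. The names of these rows are used below only as addresses.

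The study grew tumours from LG1233-OVA, a murine lung cancer line whose name carries the model antigen ovalbumin. The sgUhrf1 group came from cells in which Uhrf1 had been targeted by CRISPR/Cas9 and kept as a stable knockout line, and the sgNT group, labelled wild type, from the matching line with a control guide. Both lines were placed under the skin of female C57BL/6 mice, 1000000 cells each, and whole tumours were taken on day 27, 3 per group. No edit of the mice is labelled, so host cells in both groups carry an intact Uhrf1. The labels do not state the age of the mice, the place where the guide cuts or whether a line is 1 clone. The tumours are called biological replicates, but nothing says that they came from separate cultures, so p-values measure the spread between these tumours.

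UHRF1 is a nuclear protein that reads hemimethylated DNA behind the replication fork through its SRA domain and marks histone H3 with ubiquitin through its RING domain. These marks bring in DNMT1, which copies the methylation of the old strand onto the new one. DNMT3A places methylation on sites that had none and does so apart from replication. UHRF1 and DNMT1 are known to be most abundant in dividing cells, so in a bulk tumour their RNA depends on the share of dividing cells as well as on the level in each. Fewer cells of a type and less RNA per cell cannot be told apart in such samples.

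The exons that carry the comparison are shown first, because the results compare parts of a gene by their place along the transcript. Sequences are those of the GENCODE vM21 transcripts on GRCm38, 5′ to 3′ on the coding strand, which is the plus strand for Uhrf1 and the minus strand for Dnmt1. Capitals mark bases that lie in exactly 1 row, so their reads can be counted there; lower case marks bases in no row or in a pair of rows. Only coding bases are printed, so Uhrf1 exon 2 is shown from the start codon on, without the 5′ untranslated bases before it. This stretch encodes the beginning of the ubiquitin-like domain. Exons 11 and 12 lie in the middle of the coding sequence. Dnmt1 exon 5 belongs to the N-terminal part of the protein and exon 24 to its middle. Dnmt1 exon 4 is shown because all of it lies in both Gm47079 and Icam4, and featureCounts by default gives a read pair that touches several rows to none.
Uhrf1 exon 2, row Stap2, chr17:56305098-56305250: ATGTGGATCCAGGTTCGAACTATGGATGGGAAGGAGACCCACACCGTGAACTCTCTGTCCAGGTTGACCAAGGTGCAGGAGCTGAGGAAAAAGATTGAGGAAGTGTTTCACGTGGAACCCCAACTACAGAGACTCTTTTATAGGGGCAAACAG
Uhrf1 exon 11, row Mpnd, chr17:56317004-56317110: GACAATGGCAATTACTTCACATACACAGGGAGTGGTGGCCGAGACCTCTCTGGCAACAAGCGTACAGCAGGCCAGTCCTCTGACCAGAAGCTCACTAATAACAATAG
Uhrf1 exon 12, row Mpnd, chr17:56317991-56318150: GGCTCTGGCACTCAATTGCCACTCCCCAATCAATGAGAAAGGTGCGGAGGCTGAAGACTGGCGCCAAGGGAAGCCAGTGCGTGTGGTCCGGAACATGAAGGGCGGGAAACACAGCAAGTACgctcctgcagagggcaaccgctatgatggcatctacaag
Dnmt1 exon 4, rows Gm47079 and Icam4, chr9:20941373-20941583: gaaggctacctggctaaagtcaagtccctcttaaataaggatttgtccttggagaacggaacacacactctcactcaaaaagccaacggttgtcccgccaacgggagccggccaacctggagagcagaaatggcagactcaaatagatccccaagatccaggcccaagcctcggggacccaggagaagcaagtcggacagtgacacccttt
Dnmt1 exon 5, row Gm47079, chr9:20940476-20940554: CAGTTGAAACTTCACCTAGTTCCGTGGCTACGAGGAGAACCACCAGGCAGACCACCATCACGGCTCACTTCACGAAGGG
Dnmt1 exon 24, row Mrpl4, chr9:20918435-20918550: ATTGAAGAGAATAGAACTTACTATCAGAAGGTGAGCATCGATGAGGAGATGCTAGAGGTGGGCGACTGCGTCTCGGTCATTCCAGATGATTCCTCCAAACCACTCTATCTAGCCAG

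Uhrf1 (ENSMUSG00000001228.14) spans chr17:56303321-56323486 on the plus strand, and its reference transcript has 17 exons, 782 codons and 3586 nt. Its most 5′ row, Fsd1, covers 92 bp of exon 1, all 5′ untranslated. The next, Stap2, covers 238 bp: codons 1 to 51 in exon 2 and the first exons of other transcripts. The third, Mpnd, covers 690 bp. They include codons 476 to 551 in exons 11 and 12 and codons 700 to 733 in exon 16. They also include codons 773 to 782 and part of the 3′ untranslated region in exon 17. Codons 700 to 733 and 773 to 782 lie in the C-terminal stretch that holds the RING domain. A further 104 bp at chr17:56312711-56312814, 5′ of exon 11, and 71 bp at chr17:56322208-56322278 are exon in none of the coding transcripts. Together these rows cover 23.9% of the annotated exon bases of Uhrf1. Dnmt1 (ENSMUSG00000004099.16, chr9:20907209-20959888, minus strand) has 39 exons and 1620 codons in its reference transcript, of which Gm47079 covers codons 27 to 172. Icam1 covers exon 10 (codons 248 to 276) and 315 bp that are exon only in a transcript that is not among the coding ones, and Mrpl4 covers stretches between codons 684 and 1045. These amount to 19.3% of the exon bases. Dnmt3a (ENSMUSG00000020661.15, chr12:3806007-3914443, plus strand) has 23 exons and 908 codons in its reference transcript. Its row Dnmt3aos covers 1385 bp, 8.32% of its exon bases, all in the 3′ untranslated part of exon 23. No coding sequence of Dnmt3a thus stands behind its value. Of these bases, 133 also lie in the row called Dnmt3a. Counting was without strand, so reads of antisense RNA in these intervals are included. Outside annotated exons lie 2401 of the 2493 bp listed for Fsd1, 2331 of 2569 for Stap2 and 1615 of 2305 for Mpnd. For Dnmt1 the same holds for 3050 of 3485 bp in Gm47079, 3960 of 4360 in Icam1 and 2031 of 2617 in Mrpl4. Any reads there count in the values below, so these are not of the exon parts alone, except in Dnmt3aos.

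**Figure D1:**
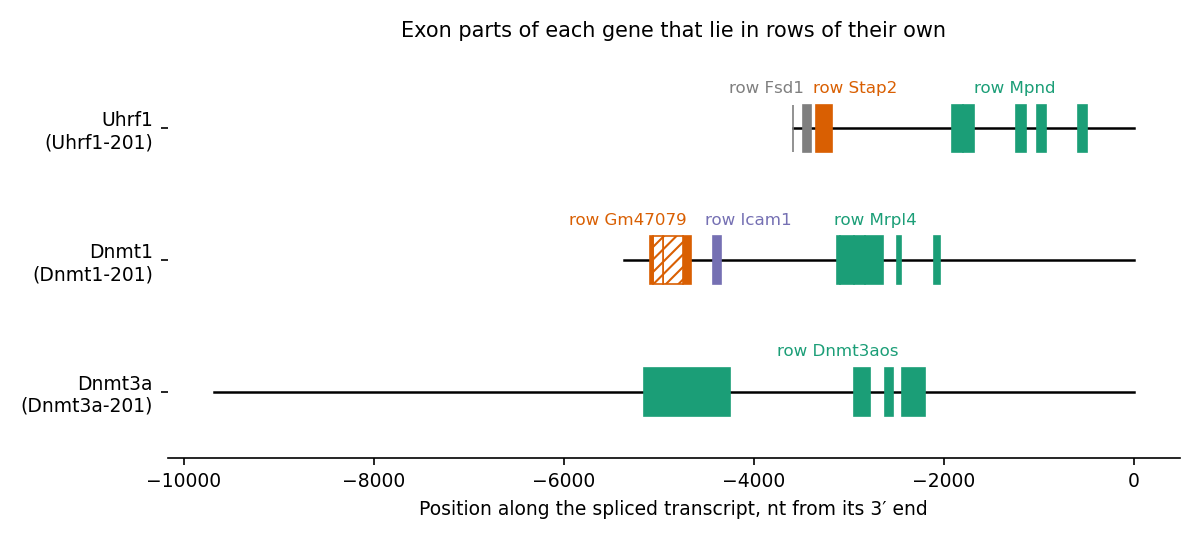
Exon parts of Uhrf1, Dnmt1 and Dnmt3a along their spliced transcripts, in nt counted back from the 3′ end at 0. Filled boxes are bases of the row named above, and hatched boxes are the Dnmt1 bases shared by rows Gm47079 and Icam4. The Dnmt3a boxes are drawn filled, though 133 of their bases also lie in the row called Dnmt3a. Bases outside the reference transcript are not drawn. The Stap2 and Fsd1 rows of Uhrf1 lie at its 5′ end, while Mpnd lies nearer its 3′ end.

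No row of Uhrf1, Dnmt1 or Dnmt3a passed an adjusted p of 0.05 between sgUhrf1 and sgNT tumours, while the estimates of all 6 rows with enough reads to test were below 0. The largest was at the 5′ end of Uhrf1 (row Stap2), where sgUhrf1 tumours had 0.474 times the sgNT level. The most 5′ tested row of Dnmt1, Gm47079, was close to it at 0.489 times. A drop of this kind was not particular to these genes. Rows of all single coding genes at 3000 to 4000 nt from the 3′ end, where Stap2 lies, had a median log2 fold change of -0.86, beside -1.08 for Stap2. The 3′ part of Uhrf1 stood at 0.774 times, Dnmt1 with its rows summed at 0.701 times and Dnmt3a at 0.706 times. By edgeR's quasi-likelihood test with Benjamini-Hochberg adjustment 0 of the 6 rows passed, against 4187 of all 10503 tested rows (39.9%) and 42.6% of the 5740 tested rows of a single gene. At an unadjusted p under 0.05, 1 of the 6 was lower, against 24.5% of all rows. DESeq2 called 1 of the 6 and limma-voom called 0. The groups did not overlap in 4 of the 6 rows, each time with the sgUhrf1 tumours lower, as in 27.8% of all tested rows.

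The libraries differed in other ways that may bear on these genes. Each tumour gave 5462555 to 6375069 counts over 16051 to 18771 rows with reads. The summed level of lung epithelial and carcinoma markers with rows of their own was 1693 to 2882 CPM in sgUhrf1 tumours and 157 to 439 CPM in sgNT tumours, and 3 of 4 tested markers were higher; Sftpb, a surfactant gene, was not past the threshold. T cell markers stood at 79.7 to 204 CPM in sgUhrf1 tumours and 7.26 to 23.4 CPM in sgNT tumours. Of the tested T cell markers, 4 of 4 were higher, and the CD3 genes had only rows shared with other genes. Beside these marker counts, 20.2% of all tested rows were called higher and 19.7% lower. Skeletal muscle markers reached 374 CPM in sgUhrf1 replicate 1 and 451 CPM in sgNT replicate 2 and were at most 22.5 CPM elsewhere. The B cell gene Ms4a1 stood out in sgNT replicate 3 alone, where its list summed to 58.3 CPM. Keratinocyte markers stood out in sgUhrf1 replicate 2 alone, at 21.1 CPM against at most 0.296 CPM in the other 5 tumours. The summed leukocyte markers (46.8 to 85.8 CPM in sgUhrf1 tumours, 65.9 to 103 CPM in sgNT tumours), myeloid and endothelial markers overlapped between groups, and of 4 tested fibroblast markers 1, Pdgfra, was lower. The part of these differences in the values of Uhrf1, Dnmt1 and Dnmt3a was not tested, apart from leaving out the muscle-rich tumours.

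At the 5′ end of Uhrf1, the row Stap2 held 39, 29 and 36 counts in sgUhrf1 replicates 1 to 3, against 76, 133 and 51 in sgNT replicates 1 to 3. On the CPM scale (counts per 1000000 after TMM scaling of library sizes) this was 6.90, 4.60 and 7.92 in sgUhrf1 tumours and 12, 19.7 and 9.04 in sgNT tumours. All sgUhrf1 tumours were below all sgNT tumours, and the gap between the highest sgUhrf1 and the lowest sgNT tumour was small. The means were 6.47 ± 1.70 CPM in sgUhrf1 tumours and 13.6 ± 5.51 CPM in sgNT tumours (SD, n = 3 each). The log2 fold change was -1.08 ± 0.39 (SE; 95% interval -1.96 to -0.20), with an edgeR p of 0.0212 before and 0.0524 after adjustment. sgNT replicate 2 was the highest tumour, and without it the log2 fold change was -0.73 (edgeR adjusted p = 0.230). The row passed under DESeq2 (adjusted p = 0.0382) and without sgNT replicate 3 (edgeR adjusted p = 0.0451).

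Further 5′, the row Fsd1 over the untranslated start of exon 1 held 0 counts in each sgUhrf1 tumour, against 2, 7 and 0 counts in sgNT replicates 1 to 3. It was too thin to test. With 3 counts taken as the upper limit that a group total of 0 allows, the sgUhrf1 level was 0.182 CPM at most. This limit is 2.65-fold below the estimate of 0.481 CPM in the pooled sgNT tumours. It covers counting error in the sgUhrf1 tumours only, not in the 9 sgNT counts or the spread between tumours. Of the 9 sgNT counts, 7 came from replicate 2, and replicate 3 held 0 as the sgUhrf1 tumours did.

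The 3′ part of Uhrf1, the row Mpnd, held 685, 460 and 409 counts in sgUhrf1 replicates 1 to 3, against 841, 917 and 554 in sgNT replicates 1 to 3. This was 121, 73.0 and 89.9 CPM in sgUhrf1 tumours and 133, 136 and 98.2 CPM in sgNT tumours. The groups overlapped, since sgUhrf1 replicate 1 was above sgNT replicate 3. The means were 94.7 ± 24.5 CPM in sgUhrf1 tumours and 122 ± 21.0 CPM in sgNT tumours (SD, n = 3 each), a log2 fold change of -0.37 ± 0.23 (SE; 95% interval -0.89 to 0.15; edgeR adjusted p = 0.227). Leaving out 1 sgUhrf1 tumour moved it by more than 1.5 times: it was -0.22 without replicate 2 and -0.60 without replicate 1. Per kb of exon covered, this part stood at 137 CPM in sgUhrf1 tumours and 177 CPM in sgNT tumours. The 5′ part stood at 27.2 CPM per kb in sgUhrf1 tumours and 57.1 CPM per kb in sgNT tumours, so the 3′ part was the better covered in both groups. A row over a Uhrf1 intron, Gm16276, gave 3.75 CPM per kb in sgUhrf1 tumours and 2.56 CPM per kb in sgNT tumours. Those values are per kb of all its 262 bp, while the exon rows were divided by their exon bases only. Of the bases listed for Stap2, 2331 lie outside annotated exons, and for Mpnd 1615. The intron row thus cannot show how many reads of either exon row come from exons.

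**Figure D2:**
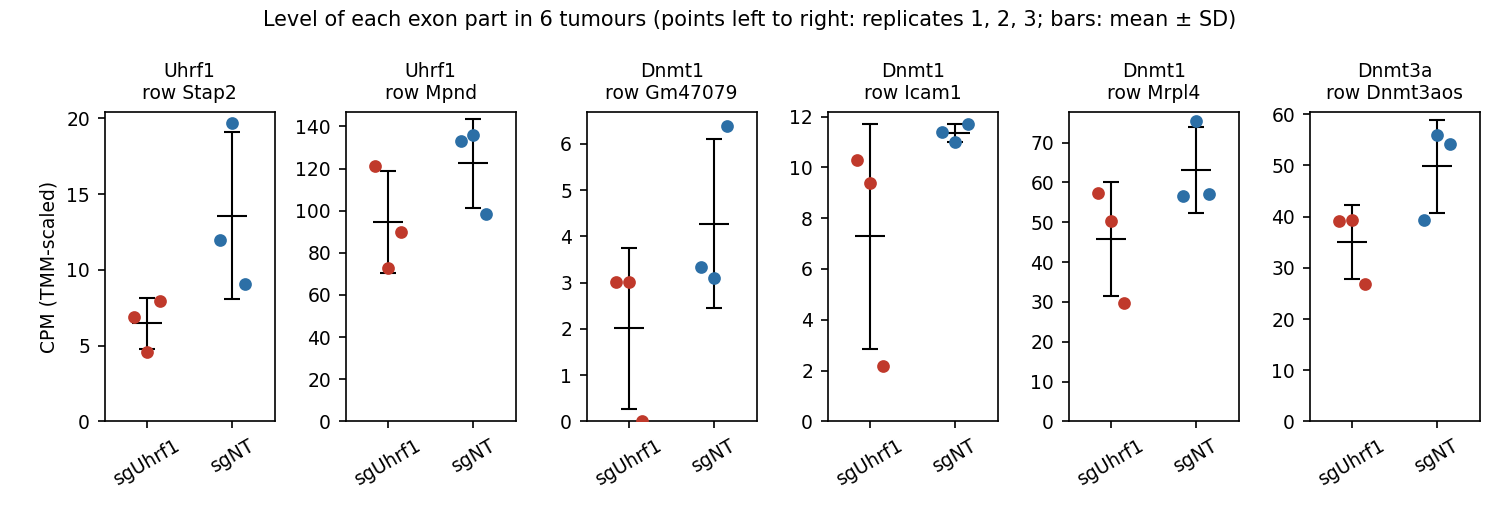
Level of each tested exon part of Uhrf1, Dnmt1 and Dnmt3a in CPM, on a linear axis from 0 in each panel, with sgUhrf1 tumours in red on the left and sgNT tumours in blue. Points are tumours, and bars are the mean and SD; the groups overlap in rows Mpnd and Mrpl4, and sgUhrf1 replicate 3 is lowest in all Dnmt1 and Dnmt3a panels.

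With its 3 rows summed, Uhrf1 stood at 128, 77.6 and 97.9 CPM in sgUhrf1 tumours and 146, 157 and 107 CPM in sgNT tumours. The log2 fold change was -0.43 ± 0.23 (SE; edgeR adjusted p = 0.166), and its 95% interval allows between 0.517 and 1.06 times the sgNT level. The log2 fold change was -0.28 without sgUhrf1 replicate 2 and -0.65 without sgUhrf1 replicate 1. RNA of the targeted gene was thus counted in every sgUhrf1 tumour. A small insertion or deletion can leave a transcript in place, and host cells contribute reads, so the RNA level does not check the labels. The row that the tables call Uhrf1 covers 823 bp of exons of Lonp1, the neighbouring gene of a mitochondrial protease, and of no other gene. It held 185 ± 26.1 CPM in sgUhrf1 tumours and 264 ± 39.8 CPM in sgNT tumours (SD, n = 3 each; log2 fold change -0.51 ± 0.19, edgeR adjusted p = 0.0545). Read by its name, it would have stood for Uhrf1.

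Dnmt1, the maintenance methyltransferase that UHRF1 recruits, was measured best in the row Mrpl4 over its middle exons. This row held 324, 316 and 135 counts in sgUhrf1 replicates 1 to 3, against 357, 509 and 322 in sgNT replicates 1 to 3. In CPM it was 57.4, 50.2 and 29.7 in sgUhrf1 tumours and 56.5, 75.5 and 57.1 in sgNT tumours. sgUhrf1 replicate 1 lay within the sgNT range, and replicate 3 lay far below every other tumour. The log2 fold change was -0.46 ± 0.26 (SE; 95% interval -1.06 to 0.14; edgeR adjusted p = 0.196), and -0.23 without sgUhrf1 replicate 3.

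In the more 5′ parts of Dnmt1 sgUhrf1 replicate 3 was again the lowest tumour, and all sgUhrf1 tumours were below all sgNT tumours, replicates 1 and 2 narrowly. Icam1 held 58, 59 and 10 counts in sgUhrf1 replicates 1 to 3 and 72, 74 and 66 in sgNT replicates 1 to 3. The sgNT tumours were close together at 11 to 11.7 CPM, while the sgUhrf1 tumours stood at 10.3, 9.37 and 2.20 CPM. Gm47079, over the N-terminal codons, held 17, 19 and 0 counts in sgUhrf1 replicates 1 to 3 and 21, 21 and 36 in sgNT replicates 1 to 3. Of its 435 bp of exon, 319 also lie in Icam4, and pairs that touch both rows were counted in neither. Icam1 had a log2 fold change of -0.62 ± 0.48 (SE; edgeR adjusted p = 0.336), and -0.21 without sgUhrf1 replicate 3. Gm47079 had -1.03 ± 0.81 (SE; edgeR adjusted p = 0.343), and -0.50 without that tumour. Icam4 held 0 counts in every tumour, and all of its Dnmt1 bases are also in Gm47079. Summed over the 4 rows, Dnmt1 stood at 55.0 ± 20.4 CPM in sgUhrf1 tumours and 78.6 ± 9.63 CPM in sgNT tumours (SD, n = 3 each). The log2 fold change of the sum was -0.51 ± 0.28 (SE; 95% interval -1.15 to 0.12; edgeR adjusted p = 0.178), and -0.24 without sgUhrf1 replicate 3. The row that the tables call Dnmt1 covers exons of Rdh8 and A230050P20Rik instead, and it was higher in sgUhrf1 tumours, at 18.1 ± 3.16 CPM against 2.25 ± 0.811 CPM in sgNT tumours (SD, n = 3 each; edgeR adjusted p = 0.000593).

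Dnmt3a, the de novo methyltransferase, had 221, 248 and 122 counts in sgUhrf1 replicates 1 to 3 over its 3′ untranslated region, against 249, 378 and 305 in sgNT replicates 1 to 3. This was 39.1, 39.4 and 26.8 CPM in sgUhrf1 tumours and 39.4, 56.0 and 54.1 CPM in sgNT tumours. The groups met at 39.4 CPM, where sgUhrf1 replicate 2 and sgNT replicate 1 were equal to the printed digit, and replicate 3 was again the lowest sgUhrf1 tumour. The log2 fold change was -0.50 ± 0.24 (SE; 95% interval -1.04 to 0.03; edgeR adjusted p = 0.121). A second row, called Dnmt3a in the tables, covers 561 bp of Dnmt3a together with 1000 bp of Pomc and 1890 bp of Efr3b. It stood at 25.2 ± 5.40 CPM in sgUhrf1 tumours and 21.8 ± 3.65 CPM in sgNT tumours (SD, n = 3 each; log2 fold change 0.21 ± 0.26, edgeR adjusted p = 0.564), and the reads of its 3 genes cannot be told apart. Per kb of exon, the Dnmt3a row held 25.3 CPM in sgUhrf1 tumours and 36 CPM in sgNT tumours. That is below the best covered part of Dnmt1, Mrpl4, which held 78 CPM per kb in sgUhrf1 tumours and 108 CPM per kb in sgNT tumours, and below Mpnd of Uhrf1. These parts lie at different places in their transcripts, so the order is that of the parts and need not be that of the genes.

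The relatives of these enzymes were covered unevenly. Uhrf2, the paralogue of Uhrf1, kept its own name for a row of 1574 bp and had 19.4 ± 6.54 CPM in sgUhrf1 tumours and 18.3 ± 4.72 CPM in sgNT tumours (SD, n = 3 each; log2 fold change 0.07 ± 0.32, edgeR adjusted p = 0.874). Dnmt3b, the other de novo enzyme, was seen only in a row that also covers 30 bp of Commd7. That row stood at 36 ± 3.77 CPM in sgUhrf1 tumours and 28.2 ± 2.27 CPM in sgNT tumours, with no overlap but an edgeR adjusted p of 0.208. Dnmt3l, a germline cofactor of the de novo enzymes without activity of its own, had 52 bp in a row with 850 bp of Aire, the thymic regulator. This row rose to 31.1 ± 0.985 CPM in sgUhrf1 tumours, against 1.38 ± 0.858 CPM in sgNT tumours (SD, n = 3 each; log2 fold change 4.49 ± 0.45, edgeR adjusted p = 0.000222). Which of both genes the reads belong to cannot be told apart from the counts. Dnmt3c, a rodent germline methyltransferase, had 0 counts in sgUhrf1 tumours and 1 count in sgNT tumours.

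The parts of 1 gene were then set against each other within each tumour, which removes the scaling between libraries. In Uhrf1 the 5′ row held 5.69, 6.30 and 8.80% of the count of the 3′ row in sgUhrf1 replicates 1 to 3, against 9.04, 14.5 and 9.21% in sgNT replicates 1 to 3. All sgUhrf1 tumours were below all sgNT tumours, with sgUhrf1 replicate 3 and the lower pair of sgNT tumours close together. The mean log2 ratio was -3.88 ± 0.33 in sgUhrf1 tumours and -3.23 ± 0.39 in sgNT tumours (SD, n = 3 each), a difference of -0.64, and -0.42 without sgNT replicate 2. The exact 2-sided permutation p was 0.1, the smallest that 3 against 3 tumours allow, and 0.3 adjusted over the 3 ratios compared. In Dnmt1 the ratio of Icam1 to Mrpl4 differed by -0.43 (exact permutation p = 0.5). It rested on sgUhrf1 replicate 3, where it was 7.41%, against 14.5 to 20.5% in the other 5 tumours. Without that tumour the difference was 0.01. The ratio of Gm47079 to Mrpl4, with 0.5 counts added to both rows, differed by -1.52 (exact permutation p = 0.5), again with replicate 3 lowest. There Gm47079 held 0 counts, so the added counts set the size of the difference. It was -0.19 without sgUhrf1 replicate 3 and -2.23 without sgUhrf1 replicate 2.

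The same comparison over the whole tables gave the background for the Uhrf1 ratio. In 902 genes with at least 2 rows of their own and at least 60 counts in each, the median log2 ratio of the 5′ row to the 3′ row was -1.48, -1.43 and -1.77 in sgUhrf1 replicates 1 to 3. It was -1.03, -0.80 and -0.82 in sgNT replicates 1 to 3. Reads thus lay further towards the 3′ ends of transcripts in every sgUhrf1 library than in any sgNT library. The difference between groups had a median of -0.702 over these genes, with quartiles of -1.28 and -0.10, and it was below 0 in 703 of 902. The groups did not overlap, with sgUhrf1 lower, in 48.4% of the genes, and with sgUhrf1 higher in 5.43%. The Uhrf1 difference of -0.64 lies between this median and the upper quartile.

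**Figure D3:**
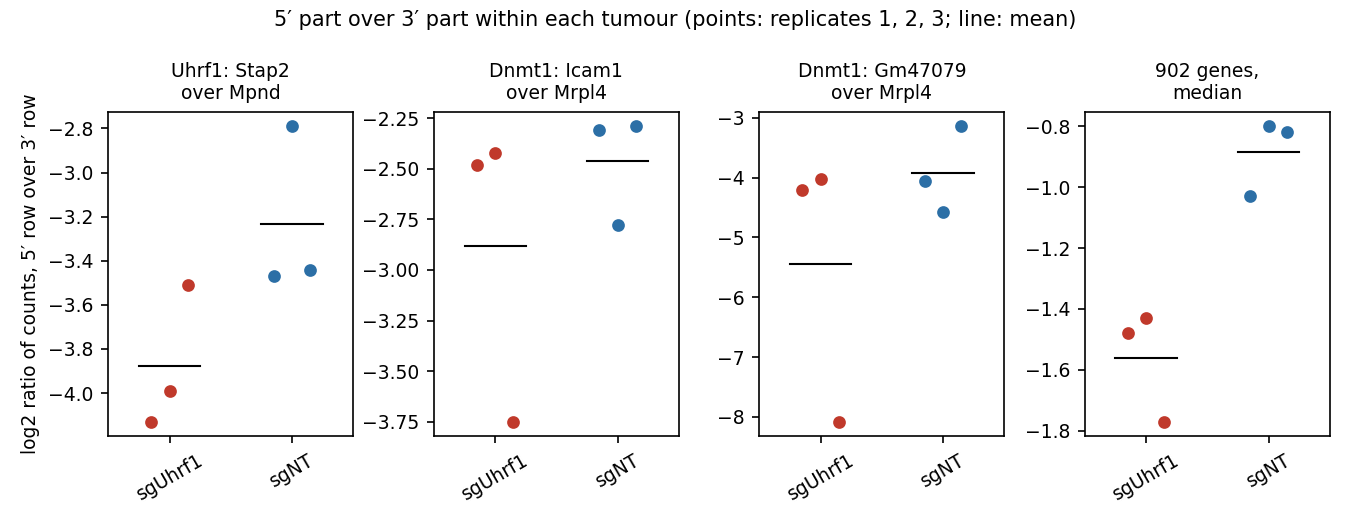
Log2 ratio of counts in the 5′ row to the 3′ row within each tumour for Uhrf1 and Dnmt1, and the median of the same ratio over 902 genes, with sgUhrf1 in red on the left and sgNT in blue. Lines are group means; the sgUhrf1 tumours are below the sgNT tumours for Uhrf1 and for the 902 genes, and overlap them for Dnmt1, where replicate 3 is lowest.

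Fold changes of all rows followed the same line. Among rows of a single coding gene, those under 1000 nt from the 3′ end had a median log2 fold change of 0.54 (1215 rows). The median was 0.01 at 1000 to 2000 nt (1353 rows), -0.36 at 2000 to 3000 nt (1015 rows) and -0.86 at 3000 to 4000 nt (636 rows). Beyond that it was -0.95 at 4000 to 6000 nt (647 rows) and -1.05 from 6000 nt on (402 rows). The share of rows called lower was 5.76% in the first class and 44.7% at 3000 to 4000 nt. Distance is the mean position of the covered bases on the coding transcript that the row covers most.

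Each part of the genes was set against the rows of its own distance class. The 3′ part of Uhrf1, 1302 nt from the end, was 0.38 below the median of its distance class on the log2 scale. The 5′ part, at 3271 nt, was 0.22 below its class median. Dnmt1 in Mrpl4, at 2773 nt, was 0.10 below, in Gm47079 0.09 below and in Icam1 0.32 above. Dnmt3a, at 3951 nt, was 0.35 above its class median. All of these gaps were within 2 SE of the row's own fold change.

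**Figure D4:**
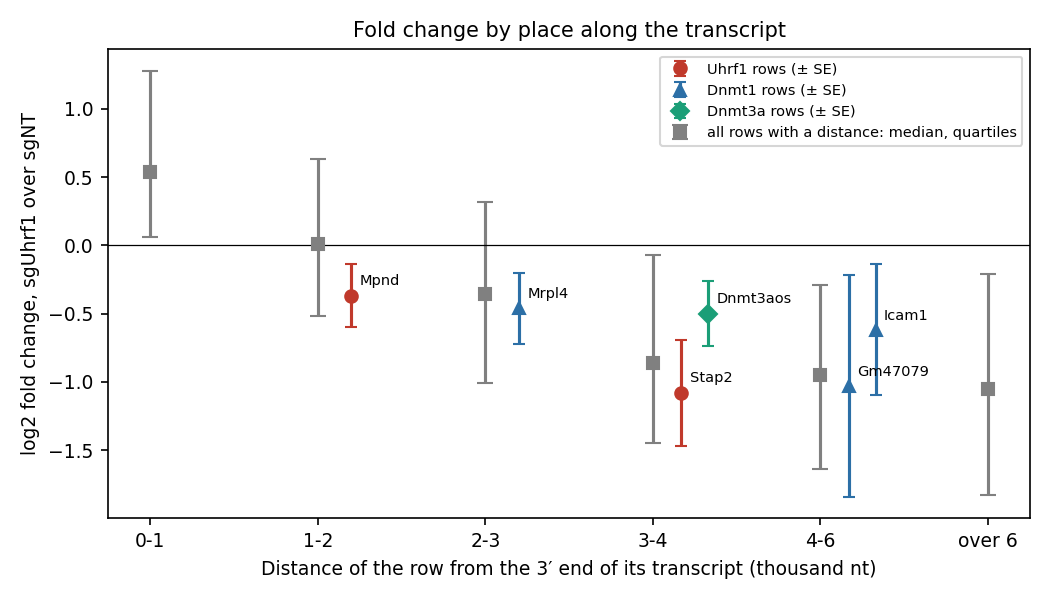
Log2 fold change of sgUhrf1 over sgNT tumours by distance of a row from the 3′ end of its transcript. Grey squares are the median of all single-gene rows in each class and bars its quartiles; coloured points are rows of Uhrf1, Dnmt1 and Dnmt3a with their SE, and all 6 points lie within the quartiles of their class, both Uhrf1 rows below the class median and Dnmt3a above it.

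A fit with an offset per tumour that follows this distance trend, chosen after seeing the data, was run over the 5268 rows with a distance. It called 986 rows higher and 805 lower in sgUhrf1 tumours, where the fit without it called 954 and 1355 of the same rows. For Uhrf1 the 5′ row came to -0.34 ± 0.39 (SE; edgeR adjusted p = 0.527), while the 3′ row stood at -0.49 ± 0.22 (adjusted p = 0.115). The 3′ row passed in this fit only without sgUhrf1 replicate 1, at -0.70 (edgeR adjusted p = 0.0491), and was otherwise not past the threshold when single tumours were left out. The Dnmt1 row Mrpl4 came to 0.05 ± 0.22 and Icam1 to 0.23 ± 0.43, above 0, and Gm47079 to -0.16 ± 0.77. Dnmt3a came to 0.36 ± 0.18 (edgeR adjusted p = 0.148), also above 0. The estimates of Mrpl4, Icam1 and Dnmt3a thus changed sign with the offset, and those of Gm47079 and both Uhrf1 rows did not. With single tumours left out of the offset fit, Mrpl4 ranged from -0.10 to 0.23, Icam1 from -0.06 to 0.60 and Gm47079 from -0.52 to 0.34, so no direction holds for Dnmt1 there. Stap2 ranged from -0.61 to -0.04, with -0.04 without sgNT replicate 2 and -0.09 without sgUhrf1 replicate 2. Dnmt3a ranged from 0.29 to 0.43.

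Other genes of DNA methylation, silencing and cell division, in 8 lists, had few rows of their own. Of 112 listed genes, 39 had no row over their exons, 34 had only rows shared with other genes and 4 had too few counts, which left 35 to test. In edgeR 1 of these was higher and 8 were lower (22.9%), against 20.2% higher and 19.7% lower of all tested rows. The listed genes were read from single-gene rows, which leaned further to lower calls. Of the 5268 single-gene rows with a distance from the 3′ end, the same fit called 954 higher and 1355 lower. The median log2 fold change of the 35 list genes was -0.20, beside -0.107 over all tested single-gene rows. The 8 lower genes lay at a median of 3609 nt from the 3′ end, against 1992 nt for all tested list members.

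The lists for maintenance, de novo methylation, demethylation and methyl donor supply held no called gene, while 39.9% of all tested rows were called. These lists are set together by that outcome, and the 1 higher and 8 lower calls fell in the other lists. Few genes of the lists without a call were tested, so this says little about them. The row that Dnmt3l shares with Aire is not counted here. For maintenance of methylation, Uhrf2 and Zbtb24, a gene of the ICF syndrome, were tested, and Zbtb24 stood at 0.20 ± 0.27 (log2 fold change, SE). For the de novo list only Trdmt1, a tRNA methyltransferase of the same family, was tested, at -0.17 ± 0.44. For demethylation only Smug1, a DNA glycosylase, was tested, at 0.42 ± 0.20. For methyl donor supply 3 genes were tested, among them Mthfd1 at -0.59 ± 0.31 and the methionine synthase Mtr at 0.46 ± 0.28. In these 4 lists edgeR, DESeq2 and limma-voom called 0 genes each, and 0 had an unadjusted p under 0.05. With the distance offset Mtr was called higher, at 1.34 (edgeR adjusted p = 0.0119).

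Among readers of methylated CpG, Zbtb4 was not past the threshold, at -0.51 ± 0.19 (log2 fold change, SE; edgeR adjusted p = 0.0608). In the list for H3K9 methylation and silencing 3 of 8 tested genes were called lower, against 19.7% of all tested rows. Atf7ip, the partner of SETDB1, was at 13.1 ± 4.60 CPM in sgUhrf1 tumours and 53.0 ± 11.3 CPM in sgNT tumours (SD, n = 3 each; log2 fold change -2.0 ± 0.31, edgeR adjusted p = 0.00147). It was also lower with the distance offset, at -1.03 (edgeR adjusted p = 0.0102). Cbx5, which encodes HP1 alpha, had a log2 fold change of -0.87 ± 0.22 and Ehmt2, which encodes the H3K9 methyltransferase G9a, -0.66 ± 0.23. Ehmt2 was read from 82 bp of exon, its groups overlapped and its edgeR adjusted p was 0.0429. Neither Cbx5 nor Ehmt2 was past the threshold with the offset, where they stood at 0.14 and -0.35.

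Genes of DNA replication, the process to which UHRF1 and DNMT1 are coupled, were lower in 4 of 12 tested cases. Of all tested rows, 19.7% were called lower and 20.2% higher. Mcm2, a subunit of the replicative helicase, was at 4.67 ± 1.22 CPM in sgUhrf1 tumours and 14.1 ± 1.68 CPM in sgNT tumours (SD, n = 3 each; log2 fold change -1.60 ± 0.33, edgeR adjusted p = 0.00562). E2f1, a transcription factor of S phase entry that is read here from 89 bp of exon, had a log2 fold change of -1.77 ± 0.41. Pola1, the catalytic subunit of DNA polymerase alpha, had -1.43 ± 0.34 and Rfc1, of the clamp loader, -1.64 ± 0.57. The other 8, with the ribonucleotide reductase genes Rrm1 (0.02 ± 0.19) and Rrm2 (0.40 ± 0.22) among them, did not pass. In the mitosis list 1 of 6 tested genes rose, the spindle motor Kif11, at 0.95 ± 0.32, from a row 252 nt from the 3′ end. With the distance offset Kif11 was at 0.19 and no longer called. The calls for E2f1 and Pola1 held with the offset, at -1.46 and -1.14, and those for Mcm2 and Rfc1 did not, at -0.90 and -0.82. The offset fit also called Cenpe, a kinetochore motor, higher and Cbx1, Gins1 and Tpx2 lower.

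**Figure D5:**
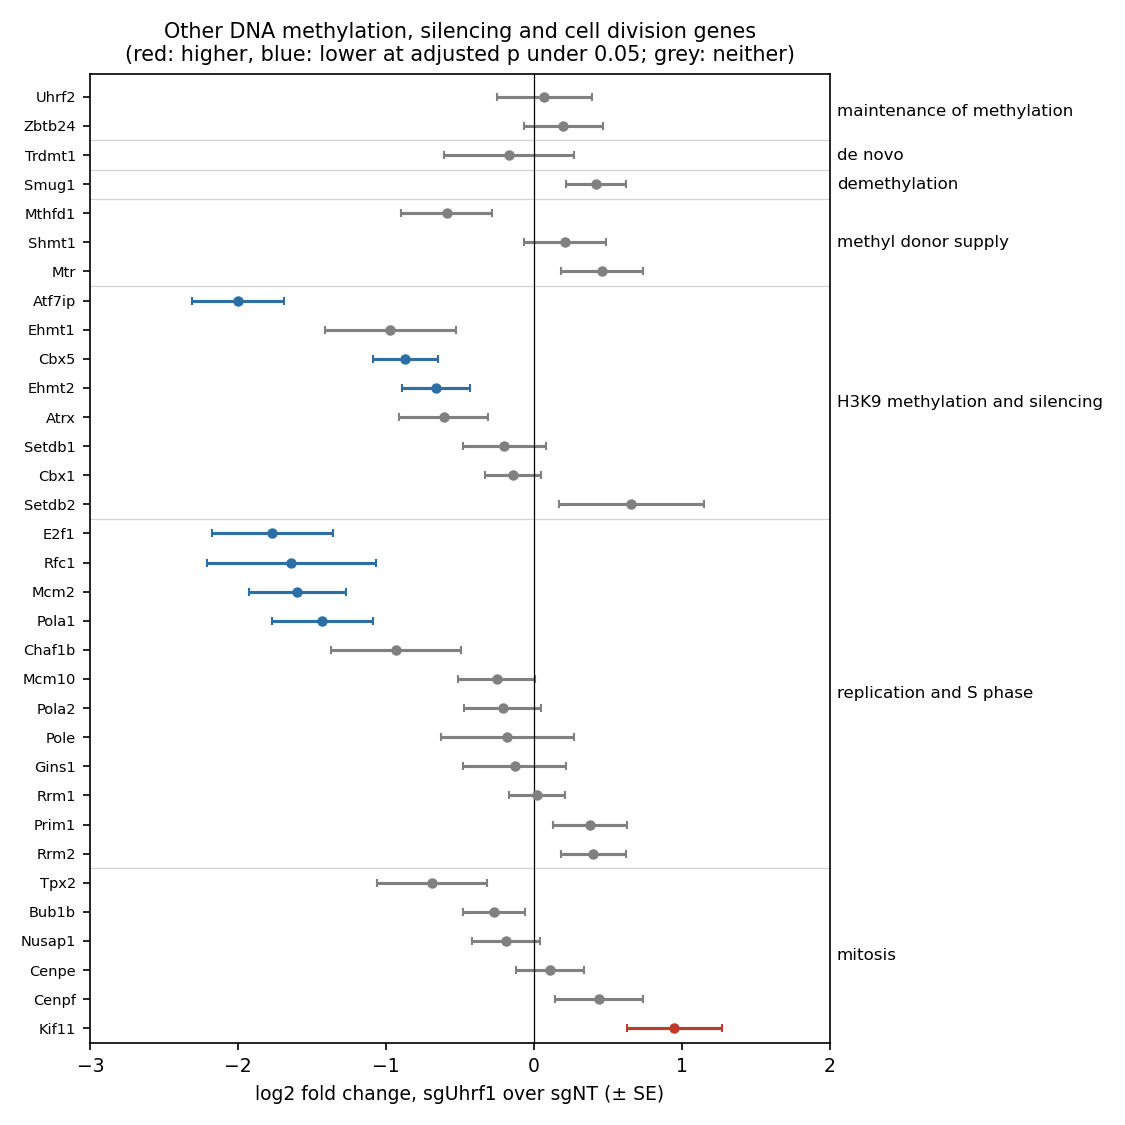
Log2 fold change of sgUhrf1 over sgNT tumours, with its SE, for 33 tested genes of 7 lists on DNA methylation, silencing and cell division; the readers of methylated CpG are not drawn. Red marks the 1 gene called higher, blue the 7 called lower among these and grey the rest; the lists for maintenance, de novo methylation, demethylation and methyl donor supply hold only grey points.

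Across the 6 tumours, the levels of Dnmt1 (row Mrpl4) and Dnmt3a moved more alike than either did with Uhrf1 (row Mpnd). Pearson r of log2 CPM was 0.899 for Dnmt1 with Dnmt3a, 0.586 for Uhrf1 with Dnmt1 and 0.382 for Uhrf1 with Dnmt3a, as a description over 6 libraries that share their group and their coverage trend. Among 5738 other rows of a single gene, the 5 most like Uhrf1 were those of P4ha3 (0.976), 4930402H24Rik (0.972), Adamts12 (0.972), Usp11 (0.969) and Xpo7 (0.963). For Dnmt1 the 5 included Csnk1g1 (0.996), Slit3 (0.990) and Slc23a2 (0.989). For Dnmt3a they were Ctdp1 (0.995), C2cd2l (0.994), Tango6 (0.991), Fxr2 (0.991) and Dync1h1 (0.990). An r of at least 0.95 was reached by 7 rows for Uhrf1, 49 for Dnmt1 and 106 for Dnmt3a.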

How the data were processed

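Bulk tumour RNA of 3 sgUhrf1 and 3 sgNT tumours was made into poly(A) libraries with random-hexamer priming and sequenced in pairs, per the labels' protocols. The authors deposited 1 table of raw counts per tumour, that is, integer numbers of read pairs per gene name. Reads were processed with fastp, STAR and featureCounts on GRCm38, per the submitters' processing notes. Per the file headers, featureCounts 2.0.1 counted pairs over exons of GENCODE M26, without strand and without counting pairs that touch several rows. M26 carries GRCm39 coordinates, so rows were renamed by the GENCODE vM21 exons (GRCm38) that their listed intervals cover, with bedtools 2.31.1. Named rows hold 46.1% of counts, rows over several genes 51.8% and rows over no exon 1.27%.

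Rows were tested with edgeR 4.0.16 in R 4.3.3 (quasi-likelihood F test, TMM, filterByExpr with minimum count 10 and minimum total 15) and adjusted by Benjamini-Hochberg across 10503 rows, with 0.05 as the threshold. SE is the absolute log2 fold change over the square root of F, and 95% intervals use the degrees of freedom that the F and p imply. Within-tumour ratios were tested with exact permutation (scipy 1.17.1). A floor of 3 counts equals 0.445 to 0.660 CPM per tumour. Alternatives used DESeq2 1.42.0, limma 3.58.1, other filters, each tumour left out, both muscle-rich tumours left out, the replicate number as a block and, chosen after seeing the data, a lowess offset (span 0.3) on distance from the 3′ end. The fits were tested on simulated data. Per list, up to 4 genes past the threshold by smallest adjusted p were named, or the 2 with the smallest p where none passed; Kif11, Rrm1, Rrm2, Zbtb4, Sftpb, Ms4a1, Pdgfra and the shared rows were named after their values were seen. The genes, lists and tests were chosen with earlier results of these data known. The results of 3 genes that the naming rules select are not reported here.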

Additional observations from a re-analysis of the deposited data

How the results depend on the processing

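For the 9 log2 fold changes of Uhrf1, Dnmt1 and Dnmt3a (6 rows and 3 sums), 123 of 131 refits kept both direction and side of the threshold. The Dnmt3a sum holds 1 row, so its 14 refits repeat those of that row. The sums were not refitted with the distance offset. With the distance offset 3 of the 6 rows reversed: Mrpl4 to 0.05, Icam1 to 0.23 and Dnmt3aos to 0.36. The Uhrf1 row Stap2 passed in DESeq2 (-1.07), with no filter (-1.16), with a stricter filter (-1.05) and in the robust fit (-1.08). With single tumours left out it ranged from -1.31 to -0.73, and the Dnmt1 ratio of Icam1 to Mrpl4 ranged from -0.66 to 0.01. Rows called higher numbered 1431 to 2020 and lower 1259 to 1908 with single tumours left out. Without both muscle-rich tumours they were 1094 and 771, from 2 tumours a group, and with the offset, over fewer rows, 986 and 805. Leaving out the muscle-rich tumours called 0 list genes higher and 4 lower. limma-voom called 0 list genes higher, the offset 2, and counting shared rows 6 higher and 14 lower. Leaving out single tumours gave 0 to 1 higher and 5 to 8 lower. Where no cause is named, the cause was not tested. Same-numbered tumours did not deviate together (r = -0.0795, -0.0209 and 0.05), and tumours of different numbers gave r from -0.0652 to 0.11. The numbers thus showed no sign of pairing, though a weak pairing could be missed. With the replicate number as a block, 1838 rows were higher and 1807 lower, 0 list genes were higher, Stap2 stood at -1.03 (edgeR adjusted p = 0.107), and no row of the 3 genes passed. With no filter the median of all rows moved to 0.123, against 0.0192. Rows under about 100 counts per tumour, such as Stap2 and Gm47079, limit what the 5′ parts can show.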
